A study of Mus musculus with 12 samples.

Results

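The genes that make, import, move and export cholesterol were followed in mouse fibroblast-derived adipocytes carrying different forms or ligands of the nuclear receptor PPARγ. The group holds 32 genes chosen by role: 18 enzymes of synthesis from acetyl-CoA to cholesterol, 5 genes of sterol sensing and control, 3 of uptake, 4 of transport inside the cell and esterification, and 2 of efflux. Each gene was read from its brightest probe set, by mean over the 12 arrays, among Affymetrix probe sets assigned to a single gene symbol. Of the 32 genes, 28 had such a probe set, out of 12393 genes in all, and 25 lay above the filter on dim signals, out of 9154 genes. Acat2, Insig1, Soat1 and Nr1h2 had no probe set with a single symbol in the annotation used and were not analysed here. Mvk, Mvd and Dhcr7 were below the filter, with mean intensities over the 12 arrays of 8.76, 81.6 and 66.8 against a limit of 101.

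All cells were mouse embryonic fibroblasts (MEFs) lacking their own PPARγ gene, into which a PPARγ form had been introduced, grown in DMEM with fetal bovine serum and differentiated for 6 days. The 4 groups of 3 arrays were S273A PPARγ without ligand, wild-type PPARγ with 1 µM rosiglitazone for 24 h, wild-type PPARγ with 1 µM MRL24 for 24 h, and wild-type PPARγ without ligand. In S273A, alanine replaces a serine that the kinase Cdk5 phosphorylates. Rosiglitazone is a thiazolidinedione and a full agonist of PPARγ, and MRL24 is a PPARγ ligand known by its code name. The series title names genes regulated by phosphorylation of PPARγ as the subject, so each of the first 3 groups was set against untreated wild-type cells, and the ligands, given at the same dose and time, were set against each other. Titles mark the arrays of the S273A group only as mutant, and the substitution is named in the text of the series, so the names were taken to mean 1 group. The labels do not say whether the untreated cells received vehicle, nor whether arrays of 1 group stand for separate cultures, so p-values reflect the spread among these 12 arrays alone, and part or all of it may be technical. The labels do not say into how many populations of cells each PPARγ form was introduced, so the form and the population cannot be told apart.

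Cholesterol is built from acetyl-CoA through mevalonate, farnesyl pyrophosphate, squalene and lanosterol. Most enzymes of the path are transcribed under SREBP-2, the product of Srebf2. Scap carries SREBP-2 out of the endoplasmic reticulum when sterols are scarce, and the Insig proteins hold it back when they are plentiful. Oxysterols made from surplus cholesterol activate LXR, which induces the exporters Abca1 and Abcg1. Adipocytes store a large pool of free cholesterol in and around their lipid droplets.

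The members moved little, and on their brightest probe sets more of them lay above the untreated wild-type level than below it. A gene was called at a limma p under 0.05 after Benjamini-Hochberg adjustment over all 9154 genes. In S273A cells 3 of the 25 members were called higher and 1 lower, where 7.14% of all genes were called (2.13% higher and 5.01% lower). With rosiglitazone 4 members were called higher and 2 lower, where 7.9% of all genes were called (3.7% higher and 4.19% lower). With MRL24 no member was called higher and 1 was called lower, where 5.51% of all genes were called (3.21% higher and 2.29% lower). At an unadjusted limma p under 0.05 there were 6 members higher and 2 lower in S273A cells, where 8.16% of all genes were higher and 12.7% lower. There were 9 higher and 3 lower with rosiglitazone, where 10.9% of all genes were higher and 12.1% lower. With MRL24 there were 4 higher and 3 lower, where 13.3% of all genes were higher and 11.3% lower. The median log2 difference of the 25 members was 0.12 in S273A cells, 0.115 with rosiglitazone and 0.07 with MRL24, each against untreated wild-type, where the medians over all genes were -0.004, -0.001 and 0.011. Members above 0 numbered 18 in S273A cells (72%), 16 with rosiglitazone (64%) and 19 with MRL24 (76%), while 48.7%, 49.7% and 53.1% of all genes were above 0. These medians depend on the probe set read. With all probe sets of a gene averaged, the members' median was 0.03 in S273A cells, 0.06 with rosiglitazone and 0.03 with MRL24, and 16, 14 and 17 members were above 0. With only the probe sets above the filter averaged, it was 0.04 in S273A cells, 0.07 with rosiglitazone and 0.04 with MRL24. These 3 comparisons share the same 3 untreated arrays, so a high or low value on one of those arrays moves a gene the same way in all of them.

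The shared arrays bear on several results, because untreated wild-type replicate 2 stood apart. Its score on the first principal component was -17.17, against -5.91 to 8.24 on the other 11 arrays, and its residual SD over genes was 0.148 on the log2 scale, against 0.096 to 0.127. The median intensity of an array ranged from 296.8 to 314.9 units, and correlations between arrays lay between 0.9825 and 0.9949. Without that array 3 members were called in S273A cells (Msmo1, Scarb1 and Abca1), 3 with rosiglitazone (Fdps and Msmo1, joined by Hmgcs1), none with MRL24, and 1 between the ligands (Npc1). Among adipocyte markers, Fabp4, a fatty acid carrier, averaged 9701 ± 455 units in S273A cells, 25150 ± 209 with rosiglitazone, 15340 ± 199 with MRL24 and 9509 ± 782 in untreated wild-type cells (SD, n = 3 each). Adipoq, which encodes adiponectin, was below the filter, with means of 97.2 units in S273A cells, 139 with rosiglitazone, 68 with MRL24 and 53.5 in untreated wild-type cells, so the adipocyte label rests here on only some of that cell type's genes.

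**Figure D1:**
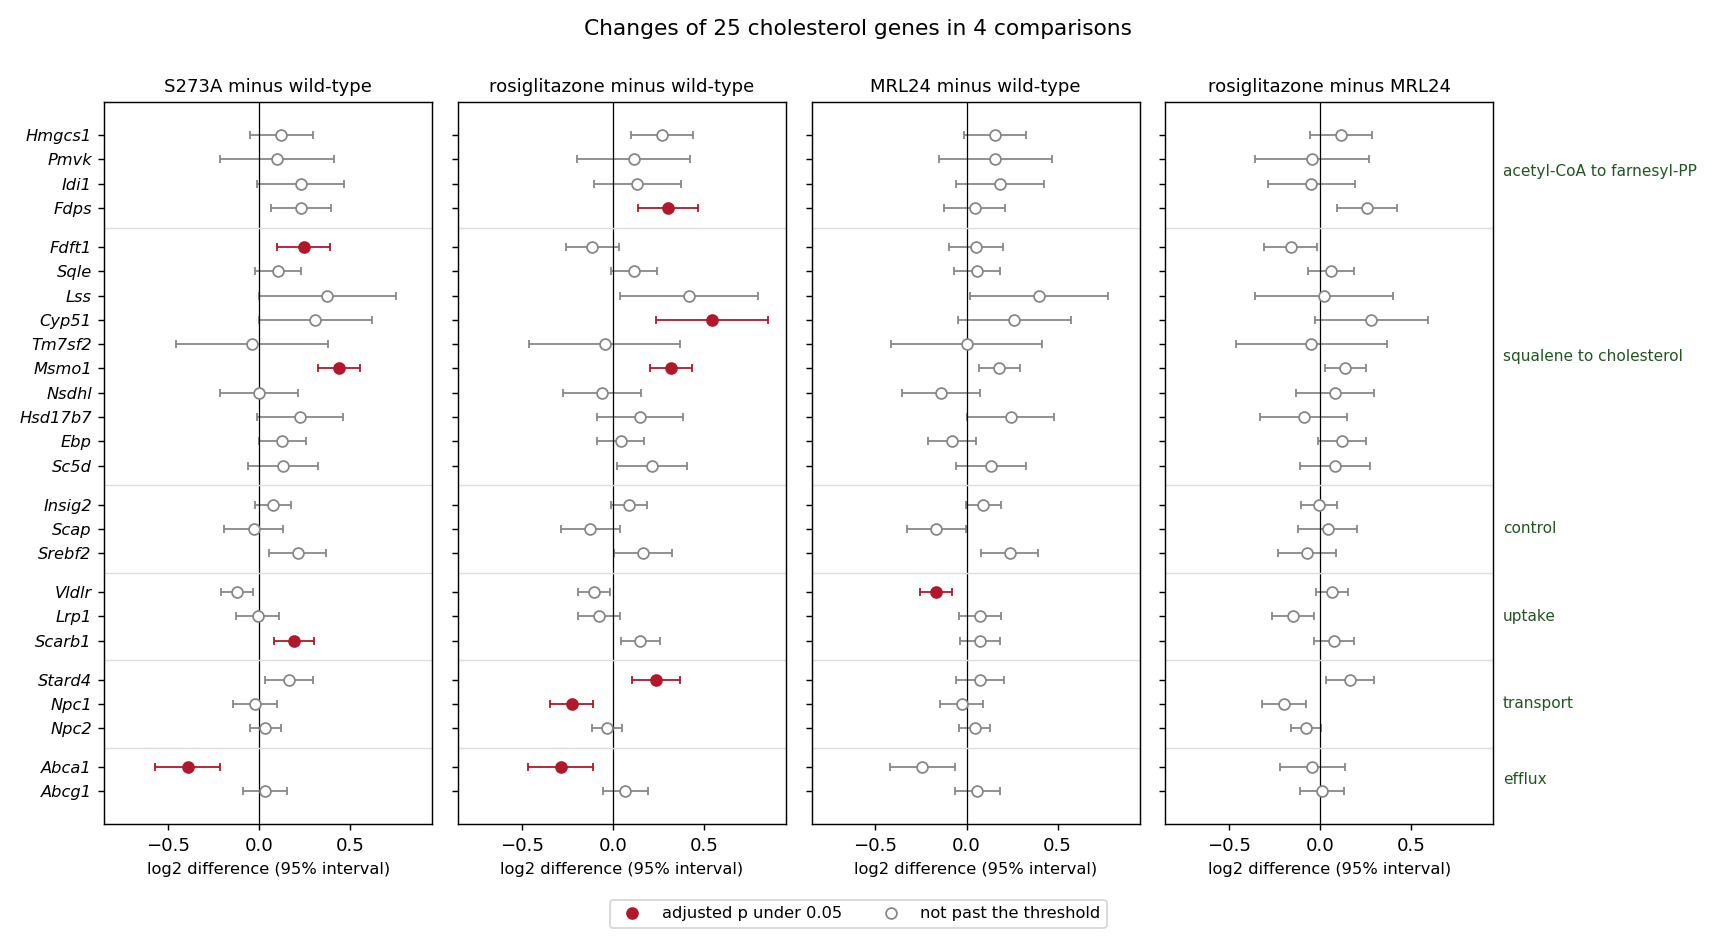
Log2 differences of the 25 members in 4 comparisons (S273A, rosiglitazone and MRL24 each minus untreated wild-type, and rosiglitazone minus MRL24), with 95% intervals, ordered by role, where red marks an adjusted p under 0.05. On these brightest probe sets most synthesis enzymes lie to the right of 0 in the first 3 panels, Abca1 lies to the left in all of these, and no member is red between the ligands.

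Upstream sequence is shown for 4 genes that the results below turn on: the synthesis enzymes Msmo1, Cyp51 and Hmgcs1, and Srebf2, whose product drives such enzymes. Each is the 250 bases before the annotated start, read 5′ to 3′ on the gene's strand, from RefSeq on GRCm38.p6. Capitals mark the CCAAT box, the letters CCAAT or, on the opposite strand, ATTGG, which NF-Y binds beside sterol-responsive sites. In Hmgcs1 they also mark the sterol regulatory element, TCACNCCAC. The positions are chr8:64733579-64733828 (minus strand) for Msmo1, chr5:4104698-4104947 (minus strand) for Cyp51, chr13:119690101-119690350 (plus strand) for Hmgcs1 and chr15:82147019-82147268 (plus strand) for Srebf2.
Msmo1: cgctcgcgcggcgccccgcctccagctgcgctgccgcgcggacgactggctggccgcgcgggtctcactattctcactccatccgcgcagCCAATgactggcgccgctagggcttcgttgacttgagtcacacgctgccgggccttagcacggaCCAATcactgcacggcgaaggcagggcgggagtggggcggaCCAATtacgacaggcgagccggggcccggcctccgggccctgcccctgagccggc
Cyp51: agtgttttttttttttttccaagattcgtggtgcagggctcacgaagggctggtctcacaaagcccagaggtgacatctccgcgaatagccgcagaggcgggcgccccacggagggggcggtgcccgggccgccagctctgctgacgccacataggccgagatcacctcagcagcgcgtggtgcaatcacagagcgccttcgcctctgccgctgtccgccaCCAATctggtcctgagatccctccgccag
Hmgcs1: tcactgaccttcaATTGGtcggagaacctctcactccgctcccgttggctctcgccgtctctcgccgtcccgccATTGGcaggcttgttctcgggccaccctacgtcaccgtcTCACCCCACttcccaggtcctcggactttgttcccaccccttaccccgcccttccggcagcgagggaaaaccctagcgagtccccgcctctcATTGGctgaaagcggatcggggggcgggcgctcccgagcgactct
Srebf2: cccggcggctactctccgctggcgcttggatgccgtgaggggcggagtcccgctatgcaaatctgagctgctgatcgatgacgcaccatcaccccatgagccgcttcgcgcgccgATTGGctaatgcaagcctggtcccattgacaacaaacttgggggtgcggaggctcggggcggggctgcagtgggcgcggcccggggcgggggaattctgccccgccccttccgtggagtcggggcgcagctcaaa
The CCAAT boxes of Msmo1 began 160, 96 and 55 bases before the start, that of Cyp51 29 bases before it, and that of Srebf2 135 bases before it. Hmgcs1 held 3 upstream boxes, at 237, 176 and 45 bases, and its sterol regulatory element began 137 bases before the start.

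A promoter window, from 250 bases before to 50 after the start, was at hand for 25 of the 32 listed genes, 4 of which had no probe set. Some genes had several windows, and a gene was counted for a motif if any of its windows held it, among members and all genes alike. Searched on both strands, the CCAAT box occurred in 20 of these 25 genes (80%), in 41.1% of all 27025 genes with a window, and in 42.6% of the 7416 tested genes with one. The sterol regulatory element occurred in 1 member (4%), Hmgcs1, and in 1.44% of all genes. Direct repeats of the half-site AGGTCA were searched with 1 base between the copies, the form that PPAR and RXR bind, and with 4 bases between them, the form that LXR and RXR bind. They occurred in 0 members, and in 0.0481% of all genes for the spacing of 1 and 0.0148% for the spacing of 4. No match to one motif overlapped a match to another in the members. A match is a description of the letters and not a binding site, and an absent match says only that the letters are not in this window.

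Of the 18 listed synthesis enzymes 14 were tested, and on their brightest probe sets most lay above the untreated wild-type level. In S273A cells 12 of the 14 were above 0 (85.7%), with a median log2 difference of 0.18, and Fdft1 and Msmo1 were called higher. With rosiglitazone 11 were above 0 (78.6%), with a median of 0.14, and Fdps, Cyp51 and Msmo1 were called higher. With MRL24 12 were above 0 (85.7%), with a median of 0.14, and none was called. Among all genes 48.7% were above 0 in S273A cells, 49.7% with rosiglitazone and 53.1% with MRL24. The shares of all genes called higher were 2.13%, 3.7% and 3.21% in the same order. At an unadjusted limma p under 0.05, 3 enzymes were higher in S273A cells, 6 with rosiglitazone and 3 with MRL24, beside 8.16%, 10.9% and 13.3% of all genes. None was lower, beside 12.7%, 12.1% and 11.3% of all genes. With all probe sets of a gene averaged, the median was 0.06 in S273A cells, 0.10 with rosiglitazone and 0.05 with MRL24, where 11, 10 and 10 of the 14 were above 0. No synthesis enzyme was called lower in these comparisons, where 5.01%, 4.19% and 2.29% of all genes were.

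Averaged over the 14 enzymes, log2(intensity + 16) was 8.841, 8.913 and 8.925 on the S273A arrays, ordered from low to high. It was 8.849, 8.852 and 8.940 with rosiglitazone, 8.824, 8.824 and 8.832 with MRL24, and 8.663, 8.715 and 8.747 in untreated wild-type cells. Every array of the first 3 groups lay above every untreated array, which is given as a description of these genes and was not tested as a list. With all probe sets of a gene averaged this separation did not hold: the level was 8.194 to 8.292 on the S273A arrays, 8.208 to 8.303 with rosiglitazone, 8.152 to 8.220 with MRL24 and 8.122 to 8.195 in untreated wild-type cells, so that S273A and MRL24 arrays overlapped the untreated ones. With only the probe sets above the filter averaged, the lowest array of the first 3 groups was at 8.646 and the highest untreated array at 8.610. In such bulk samples, fewer cells of a type and less RNA per cell cannot be told apart.

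**Figure D2:**
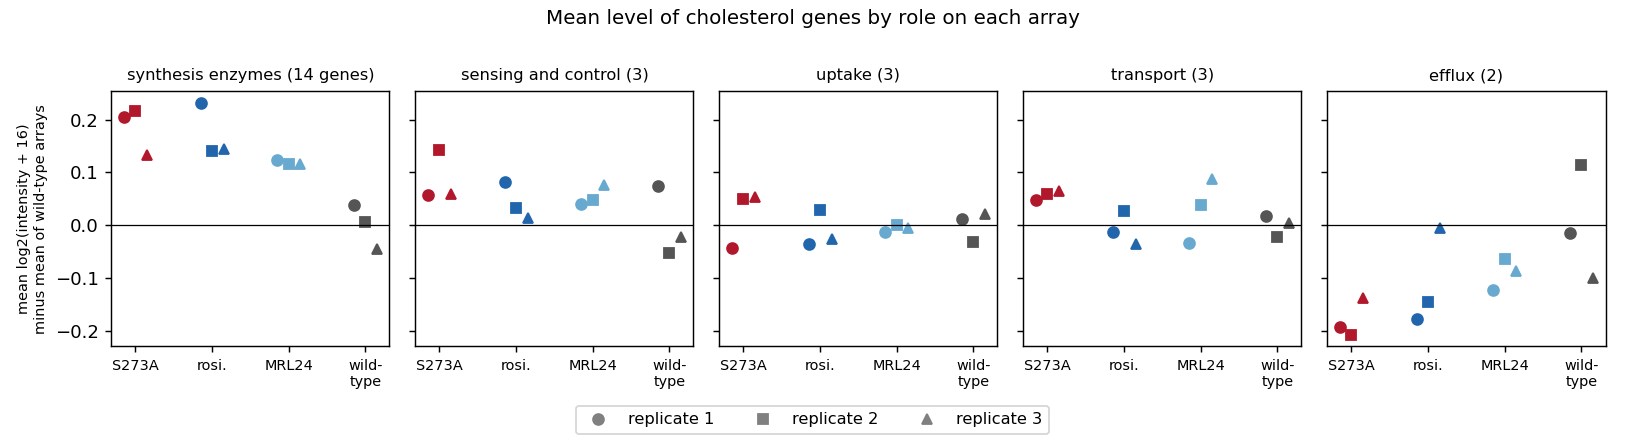
Mean log2(intensity + 16) of the members of each role on each of the 12 arrays, minus the mean of the 3 untreated wild-type arrays, on the brightest probe set of each gene, with groups in the order S273A, rosiglitazone, MRL24, wild-type. The synthesis enzymes of every S273A and ligand array lie above all 3 untreated arrays, as their averages of 8.824 or more against 8.747 or less show.

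The enzymes that lead from acetyl-CoA to farnesyl pyrophosphate had positive differences on their brightest probe sets, and 1 of the 4 tested was called. Fdps joins isoprene units into farnesyl pyrophosphate. It had 386.2, 460 and 410.3 units in S273A cells, 435.2, 449.3 and 437.3 with rosiglitazone, 377.3, 349.2 and 371.8 with MRL24, and 350.5, 361.1 and 351.6 in untreated wild-type cells. The S273A and rosiglitazone arrays were all above the untreated ones, and the MRL24 arrays overlapped them. Fdps rose 1.23-fold with rosiglitazone (440.6 ± 7.61 against 354.4 ± 5.8 units, SD, n = 3 each; log2 difference 0.30, SE 0.078, limma adjusted p = 0.0248). In S273A cells its log2 difference was 0.23 (adjusted p = 0.0946) and with MRL24 it was 0.04 (adjusted p = 0.773). The rosiglitazone call was lost when any 1 rosiglitazone array, or untreated replicate 1 or 3, was left out, with adjusted p between 0.0516 and 0.0957.

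Hmgcs1, which makes HMG-CoA, the substrate of the path's rate-limiting reductase, had 1215, 1061 and 954.2 units in S273A cells, 1206, 1089 and 1282 with rosiglitazone, 1089, 1100 and 1102 with MRL24, and 967, 1043 and 942.7 in untreated wild-type cells. The rosiglitazone and MRL24 arrays were all above the untreated ones and the S273A arrays overlapped them. With rosiglitazone its log2 difference was 0.27 (SE 0.081), just short of the call at an adjusted p of 0.0511. Hmgcs1 has 4 probe sets above the filter, and a fit of all 15838 such probe sets of the array, added after the values had been seen, gave rosiglitazone differences of 0.18 to 0.31 for them. Of the 4, the one at 0.31 had an adjusted p of 0.01 and the brightest one had 0.0485. With MRL24 the dimmest of the 4 was at 0.29 (adjusted p = 0.0193).

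Pmvk, the second kinase of the mevalonate steps, and Idi1, which isomerises isopentenyl pyrophosphate, were called in no comparison. Pmvk differed from untreated wild-type by 0.10 in S273A cells, 0.115 with rosiglitazone and 0.16 with MRL24 on the log2 scale, with an SE of 0.147. Idi1 differed by 0.23 in S273A cells, 0.135 with rosiglitazone and 0.18 with MRL24, with an SE of 0.112. A second Idi1 probe set, dimmer at a mean of 103.9 units, was at -0.17 in S273A cells, 0.13 with rosiglitazone and 0.38 with MRL24, with an SE of 0.29.

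From squalene to cholesterol, Msmo1 had the lowest adjusted p of any member. Msmo1 encodes the sterol C4-methyl oxidase, which starts the removal of methyl groups from lanosterol-derived sterols. It had 1580, 1750 and 1629 units in S273A cells, 1527, 1482 and 1547 with rosiglitazone, 1378, 1399 and 1355 with MRL24, and 1261, 1217 and 1165 in untreated wild-type cells. The 4 groups did not overlap, and their order was S273A, rosiglitazone, MRL24 and untreated wild-type from high to low. Against untreated wild-type, Msmo1 rose 1.36-fold in S273A cells (1653 ± 87.8 against 1214 ± 47.8 units, SD, n = 3 each; log2 difference 0.44, SE 0.054, limma adjusted p = 0.000118). It rose 1.25-fold with rosiglitazone (1519 ± 33.4 units; log2 difference 0.32, SE 0.054, adjusted p = 0.0014). With MRL24 its log2 difference was 0.18 (1378 ± 22.1 units, adjusted p = 0.0614). Both calls were kept in every alternative tried, and no other call of a member was. Msmo1 has no second probe set here, so the alternatives that averaged probe sets could not change its values.

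Fdft1, the squalene synthase that commits farnesyl pyrophosphate to sterols, had 977.8, 1127 and 1166 units in S273A cells, 864, 836.8 and 840.3 with rosiglitazone, 907.4, 1024 and 921.4 with MRL24, and 913.2, 911.2 and 924.6 in untreated wild-type cells. All S273A arrays were above the untreated ones, all rosiglitazone arrays were below them, and the MRL24 arrays overlapped them. Fdft1 rose 1.18-fold in S273A cells (1090 ± 99.3 against 916.3 ± 7.22 units, SD, n = 3 each; log2 difference 0.24, SE 0.069, limma adjusted p = 0.0447). With rosiglitazone its log2 difference was -0.11 (adjusted p = 0.364). The S273A call was lost in 16 of 25 alternatives, among them leaving out untreated replicate 2 (adjusted p = 0.0772). A second Fdft1 probe set above the filter was at 0.21 in S273A cells (limma adjusted p = 0.142 in the fit of all probe sets). Further Fdft1 probe sets, at means of 43.3 and 2.37 units, lay below the filter. With all probe sets of the gene averaged, the S273A difference was 0.02 (limma adjusted p = 0.937).

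Cyp51, the lanosterol demethylase, was dim. It had 137.9, 137.2 and 118.4 units in S273A cells, 162.7, 163.1 and 145.8 with rosiglitazone, 144.1, 129.2 and 108.2 with MRL24, and 114.9, 87.18 and 107.6 in untreated wild-type cells. The S273A and rosiglitazone arrays were all above the untreated ones, and 1 MRL24 array was within their range. Cyp51 rose 1.46-fold with rosiglitazone (157.2 ± 9.86 against 103.2 ± 14.4 units, SD, n = 3 each; log2 difference 0.54, SE 0.145, limma adjusted p = 0.0298). Its log2 differences of 0.31 in S273A cells (adjusted p = 0.241) and 0.26 with MRL24 (adjusted p = 0.278) did not pass. Leaving out untreated replicate 2, its lowest array, brought the rosiglitazone difference to 0.44 and the adjusted p to 0.116, and the call was also lost without any 1 of the rosiglitazone arrays (adjusted p of 0.0509 to 0.109). The dimmer probe sets of Cyp51, at means of 53.4 and 16.9 units, lay below the filter and differed in direction. They were at -0.365 and 0.64 in S273A cells, -0.08 and 0.36 with rosiglitazone, and -0.39 and 0.43 with MRL24. With all probe sets of the gene averaged, the rosiglitazone difference was 0.27 and no longer called (limma adjusted p = 0.329).

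The other 7 enzymes of the squalene to cholesterol branch that were tested were called in no comparison. Lss, the lanosterol synthase, averaged 220.5 ± 58.9 units in S273A cells, 223.3 ± 8.81 with rosiglitazone, 221.7 ± 40.1 with MRL24 and 165.5 ± 38.7 in untreated wild-type cells. Its log2 differences from untreated wild-type were 0.37 in S273A cells, 0.42 with rosiglitazone and 0.40 with MRL24, with an SE of 0.178, and its probe set is of a kind that may also match other transcripts. Sqle, the squalene epoxidase, differed by 0.10 in S273A cells, 0.12 with rosiglitazone and 0.06 with MRL24, with an SE of 0.059. Hsd17b7, a sterol ketoreductase, differed by 0.22 in S273A cells, 0.15 with rosiglitazone and 0.24 with MRL24. Sc5d, the sterol C5-desaturase, differed by 0.13 in S273A cells, 0.21 with rosiglitazone and 0.13 with MRL24. For Sc5d the direction in each of these comparisons depends on the probe set read, and for Hsd17b7 that in S273A cells and with MRL24. A second Hsd17b7 probe set was at -0.15 in S273A cells, 0.07 with rosiglitazone and -0.07 with MRL24 (SE 0.159), and a second Sc5d probe set was at -0.07 in S273A cells, -0.09 with rosiglitazone and -0.08 with MRL24 (SE 0.142), none of them called. Ebp, the sterol isomerase, differed by 0.13 in S273A cells, 0.04 with rosiglitazone and -0.08 with MRL24. Nsdhl, the decarboxylating sterol dehydrogenase, differed by -0.001 in S273A cells, -0.06 with rosiglitazone and -0.14 with MRL24. Tm7sf2, a sterol C14-reductase, differed by -0.04 in S273A cells, -0.05 with rosiglitazone and 0.001 with MRL24. Dhcr7, which makes cholesterol from its last precursor and lay below the filter, averaged 78.2 units in S273A cells, 61.9 with rosiglitazone, 59.6 with MRL24 and 67.6 in untreated wild-type cells.

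**Figure D3:**
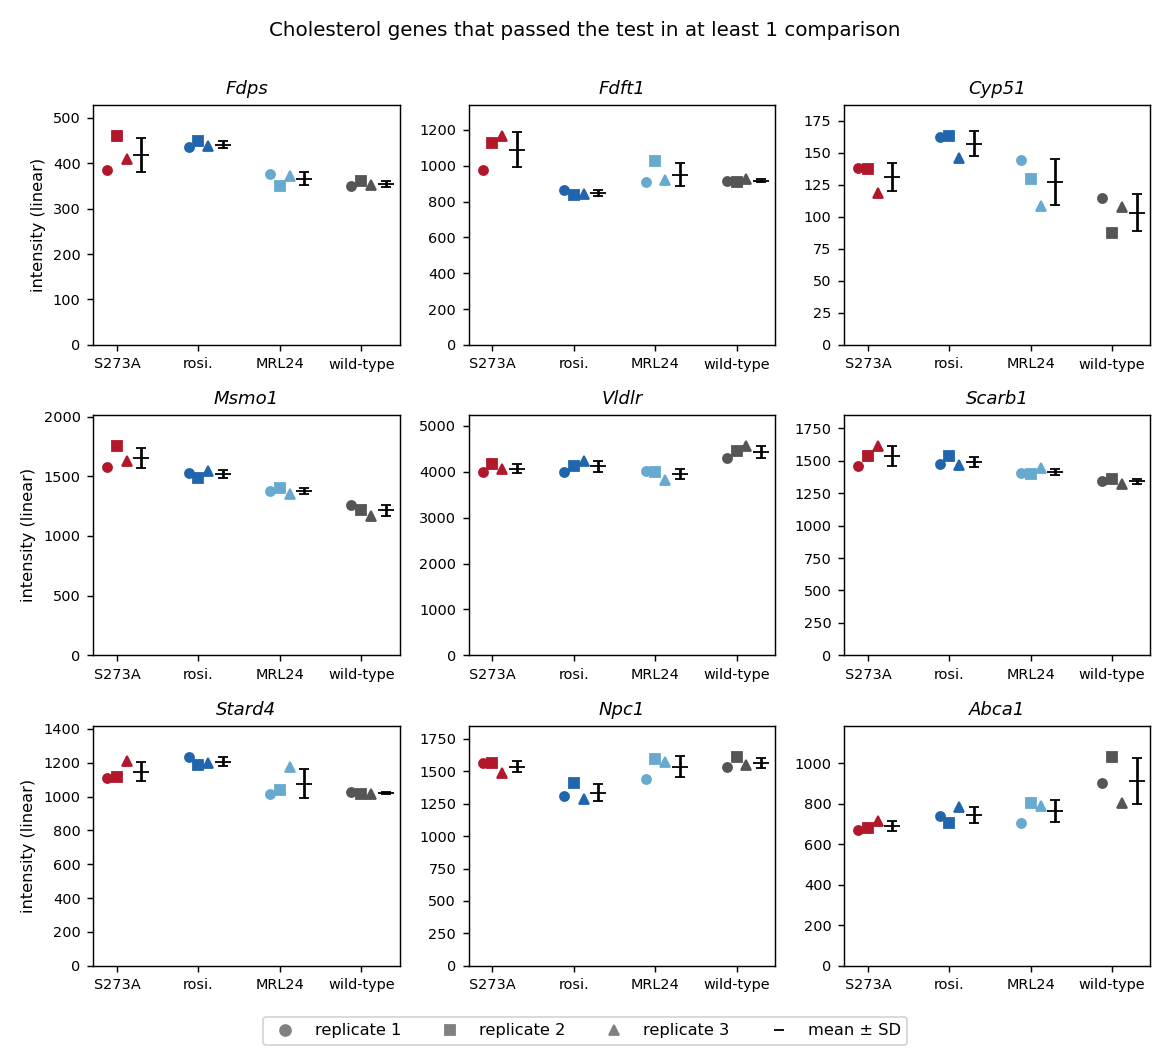
Intensity on each of the 12 arrays, on a linear axis from 0, for the 9 members called in at least 1 comparison, with the mean and SD of each group of 3 in the order S273A, rosiglitazone, MRL24, wild-type. The groups separate fully for Msmo1, Abca1 is lowest in S273A cells at 688.8 ± 25.1 units, and Npc1 is low with rosiglitazone alone at 1335 ± 66.4 units.

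Of the genes of sterol sensing and control, Srebf2, Scap and Insig2 were tested and none was called. Srebf2 had 1893, 1980 and 2206 units in S273A cells, 2059, 2005 and 1811 with rosiglitazone, 2054, 2031 and 2089 with MRL24, and 1836, 1548 and 1865 in untreated wild-type cells. The S273A and MRL24 arrays were all above the untreated ones, and 1 rosiglitazone array was within their range. The log2 differences were 0.21 in S273A cells (adjusted p = 0.104), 0.16 with rosiglitazone (adjusted p = 0.198) and 0.24 with MRL24 (adjusted p = 0.0702). A second Srebf2 probe set had 1379, 1585 and 1420 units in S273A cells, 1301, 1356 and 1206 with rosiglitazone, 1275, 1249 and 1420 with MRL24, and 1111, 1075 and 1101 in untreated wild-type cells. On that probe set every array of the first 3 groups was above every untreated one, and in the fit of all probe sets the log2 differences were 0.41 in S273A cells (adjusted p = 0.00172), 0.23 with rosiglitazone (adjusted p = 0.0484) and 0.26 with MRL24 (adjusted p = 0.0318).

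Scap differed by -0.03 in S273A cells, -0.12 with rosiglitazone and -0.17 with MRL24 on the log2 scale, with an SE of 0.076. Insig2, which retains SREBP-2 with Scap, differed by 0.08 in S273A cells, 0.09 with rosiglitazone and 0.09 with MRL24 on its brightest probe set. Its other 2 probe sets went the other way, at -0.19 and -0.09 in S273A cells, -0.195 and -0.09 with rosiglitazone, and -0.25 and -0.14 with MRL24. The MRL24 value of -0.25 had an adjusted p of 0.0482 in the fit of all probe sets, so the direction of Insig2 depends on the probe set read.

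Of the uptake genes, Scarb1 was called higher in S273A cells and Vldlr lower with MRL24. Scarb1 encodes the HDL receptor SR-BI, which takes up cholesteryl ester and can also release free cholesterol. It had 1463, 1536 and 1610 units in S273A cells, 1473, 1538 and 1465 with rosiglitazone, 1409, 1394 and 1441 with MRL24, and 1343, 1362 and 1322 in untreated wild-type cells. Every array of the first 3 groups was above every untreated one. Scarb1 rose 1.14-fold in S273A cells (1536 ± 73.5 against 1342 ± 20.2 units, SD, n = 3 each; log2 difference 0.19, SE 0.051, limma adjusted p = 0.0328). With rosiglitazone the log2 difference was 0.15 (adjusted p = 0.0847) and with MRL24 it was 0.075 (adjusted p = 0.389). The S273A call was lost in 10 of 25 alternatives, among them leaving out S273A replicate 3 (adjusted p = 0.132), and the other 2 probe sets of Scarb1 had S273A differences of 0.07 and -0.03.

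Vldlr, the very low density lipoprotein receptor, had 3986, 4164 and 4061 units in S273A cells, 4001, 4128 and 4241 with rosiglitazone, 4012, 4000 and 3826 with MRL24, and 4292, 4452 and 4552 in untreated wild-type cells. Every array of the first 3 groups was below every untreated one. Vldlr fell 1.12-fold with MRL24 (3946 ± 104 against 4432 ± 131 units, SD, n = 3 each; log2 difference -0.17, SE 0.042, limma adjusted p = 0.0323). Its log2 differences were -0.12 in S273A cells (adjusted p = 0.0942) and -0.10 with rosiglitazone (adjusted p = 0.145). The MRL24 call was lost when any 1 MRL24 array, or untreated replicate 2 or 3, was left out (adjusted p of 0.063 to 0.139), and the other 3 probe sets had MRL24 differences of -0.03, -0.15 and -0.04. The probe set read for Vldlr is of a kind that may also match other transcripts. Lrp1, a large endocytic receptor of the same family, averaged 7487 ± 415 units in S273A cells, 7134 ± 335 with rosiglitazone, 7918 ± 188 with MRL24 and 7541 ± 561 in untreated wild-type cells, and was not called.

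Of the genes of transport inside the cell, Stard4 rose and Npc1 fell with rosiglitazone. Stard4, which carries sterol between membranes, had 1111, 1116 and 1211 units in S273A cells, 1235, 1185 and 1197 with rosiglitazone, 1015, 1042 and 1173 with MRL24, and 1026, 1016 and 1018 in untreated wild-type cells. The S273A and rosiglitazone arrays were all above the untreated ones and the MRL24 arrays overlapped them. Stard4 rose 1.18-fold with rosiglitazone (1206 ± 25.9 against 1020 ± 5.38 units, SD, n = 3 each; log2 difference 0.24, SE 0.062, limma adjusted p = 0.0255). Its log2 differences were 0.165 in S273A cells (adjusted p = 0.13) and 0.075 with MRL24 (adjusted p = 0.483). A second Stard4 probe set was at 0.26 in S273A cells (adjusted p = 0.0864), 0.30 with rosiglitazone (adjusted p = 0.0378) and 0.47 with MRL24 (adjusted p = 0.006) in the fit of all probe sets. The call on the brightest probe set was lost without untreated replicate 2 (adjusted p = 0.0524) or 3 (adjusted p = 0.0515), or without any 1 rosiglitazone array (adjusted p of 0.0648 to 0.0884).

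Npc1, a lysosomal membrane protein that releases cholesterol taken up with lipoproteins, had 1563, 1561 and 1486 units in S273A cells, 1309, 1410 and 1285 with rosiglitazone, 1442, 1597 and 1568 with MRL24, and 1534, 1611 and 1545 in untreated wild-type cells. The rosiglitazone arrays were below all 9 others. Npc1 fell 1.17-fold with rosiglitazone (1335 ± 66.4 against 1563 ± 41.5 units, SD, n = 3 each; log2 difference -0.23, SE 0.056, limma adjusted p = 0.0207). In S273A cells its log2 difference was -0.025 (adjusted p = 0.856) and with MRL24 it was -0.03 (adjusted p = 0.815). The rosiglitazone call was lost without untreated replicate 2 (adjusted p = 0.0569) and without rosiglitazone replicate 1 (adjusted p = 0.0714) or 3 (adjusted p = 0.0844). Npc2, the soluble partner that hands cholesterol to Npc1, averaged 15570 ± 168 units in S273A cells, 14890 ± 408 with rosiglitazone, 15700 ± 248 with MRL24 and 15240 ± 932 in untreated wild-type cells on its brightest probe set and was not called. Its second probe set had a rosiglitazone difference of -0.11 (adjusted p = 0.0493 in the fit of all probe sets).

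Of the efflux genes, Abca1 fell in S273A cells and with rosiglitazone. Abca1, which loads cholesterol onto apolipoprotein A-I, had 670.7, 678.2 and 717.4 units in S273A cells, 738, 705.5 and 784.6 with rosiglitazone, 704.9, 803.5 and 790.9 with MRL24, and 903.8, 1032 and 802.4 in untreated wild-type cells. The S273A and rosiglitazone arrays were all below the untreated ones, and 1 MRL24 array was within their range, which was wide. Abca1 fell 1.31-fold in S273A cells (688.8 ± 25.1 against 912.9 ± 115 units, SD, n = 3 each; log2 difference -0.39, SE 0.084, limma adjusted p = 0.00948). It fell 1.22-fold with rosiglitazone (742.7 ± 39.8 units; log2 difference -0.29, SE 0.084, adjusted p = 0.0478), and with MRL24 its log2 difference was -0.24 (766.4 ± 53.7 units, adjusted p = 0.0933). Without untreated replicate 2, its highest array, the rosiglitazone difference was -0.195 (adjusted p = 0.18), while the S273A call was kept. The rosiglitazone call was lost in 18 of 25 alternatives.

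The brighter of the other 2 Abca1 probe sets was lower by less in these comparisons, and the dimmer was higher. Their log2 differences were -0.05 and 0.03 in S273A cells, -0.16 and 0.11 with rosiglitazone, and -0.06 and 0.37 with MRL24, none of them called. With the probe sets of the gene averaged, the S273A difference was -0.14 and no longer called. Abcg1, which exports cholesterol to HDL, averaged 2792 ± 57.8 units in S273A cells, 2871 ± 262 with rosiglitazone, 2846 ± 97 with MRL24 and 2729 ± 75.6 in untreated wild-type cells, and was called in no comparison.

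**Figure D4:**
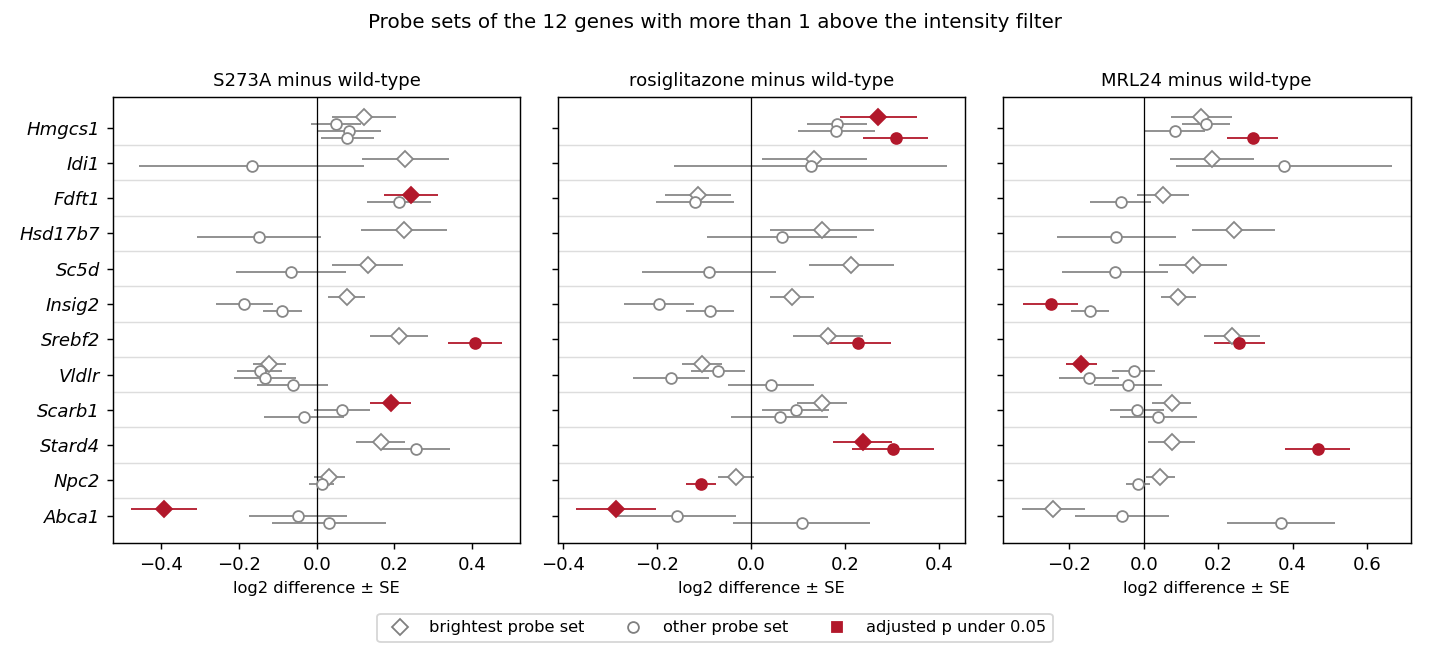
Log2 differences with SE of every probe set above the filter for the 12 members that have more than 1, in the S273A, rosiglitazone and MRL24 comparisons with untreated wild-type. The probe sets of Hmgcs1 and Srebf2 lie on the same side of 0 for rosiglitazone, from 0.16 to 0.31, while those of Abca1, Insig2 and Sc5d lie on both sides.

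Rosiglitazone and MRL24 formed the 1 pair of compounds compared, at 1 µM and 24 h each, with p-values adjusted over all genes. None of the 25 members was called, where 2.5% of all genes were called (1.41% higher with rosiglitazone and 1.09% lower), and at an unadjusted limma p under 0.05 there were 3 members higher and 3 lower with rosiglitazone, where 6.57% of all genes were higher and 8.35% lower. The median difference of the members was 0.02, against -0.02 over all genes. Npc1 came nearest to a call, at 1335 ± 66.4 units with rosiglitazone and 1536 ± 82.3 with MRL24 (SD, n = 3 each; log2 difference -0.20, 95% interval -0.32 to -0.08, limma adjusted p = 0.0777). Fdps was at 0.26 (95% interval 0.09 to 0.42, adjusted p = 0.101), Stard4 at 0.16 (0.03 to 0.29, adjusted p = 0.205), Msmo1 at 0.14 (0.025 to 0.25, adjusted p = 0.217), Lrp1 at -0.15 (-0.27 to -0.035, adjusted p = 0.182) and Fdft1 at -0.16 (-0.31 to -0.015, adjusted p = 0.275). The second Stard4 probe set went the other way, at -0.165 (SE 0.087, limma adjusted p = 0.397 in the fit of all probe sets). The direction of Stard4 between the ligands thus depends on the probe set read. For Cyp51 the interval of -0.03 to 0.59 and for Abca1 that of -0.22 to 0.135 include both no difference and differences as large as many of those against untreated cells. A missed threshold does not show that the ligands act alike on these genes.

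Markers of cell types moved between the same groups. Of 7 tested adipocyte markers, none was called lower, and 1 was called higher in S273A cells, 4 with rosiglitazone and 4 with MRL24. Among all genes 2.13% were called higher in S273A cells, 3.7% with rosiglitazone and 3.21% with MRL24. Summed over the 10 adipocyte markers on the array, including those below the filter, intensity was 13268 to 14099 in S273A cells and 31571 to 32043 with rosiglitazone. It was 19569 to 19824 with MRL24 and 12355 to 14005 in untreated wild-type cells. Fabp4 alone, at the means given above, made up most of the sum in every group. Of 8 fibroblast markers 6 were called lower in S273A cells, 2 with rosiglitazone and 1 with MRL24, beside 5.01%, 4.19% and 2.29% of all genes. Their sums were 91321 to 96557 in S273A cells, 99852 to 104770 with rosiglitazone, 104140 to 108450 with MRL24 and 95635 to 105210 in untreated wild-type cells. Of 12 macrophage markers 6 were tested, and Cd68 and Cybb were called higher in S273A cells and Cybb with MRL24; the other 4 tested, Adgre1, Csf1r, Cd14 and Mrc1, were above the filter and not called, and Ptprc, Itgam, Fcgr1, Msr1, Marco and C1qa were below it. Summed over all 12 macrophage markers, intensity was 4146.3 to 4318.8 in S273A cells and 3665 to 4023.1 with rosiglitazone. It was 3757.4 to 3811.6 with MRL24 and 3365.4 to 3885.9 in untreated wild-type cells. Of 5 hepatocyte markers 2 were tested and none was called. The part of these shifts in the members' differences was not tested. Of 6 listed control genes, 4 (Actb, Hprt, Tbp and Pparg) were tested and none was called. Their log2 differences from untreated wild-type ran from -0.181 to 0.239 in S273A cells, -0.113 to 0.125 with rosiglitazone and -0.124 to 0.097 with MRL24. In S273A cells 1 was higher and 2 lower at an unadjusted limma p under 0.05, beside 8.16% and 12.7% of all genes.

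Further genes of cholesterol handling, outside the 32, mostly did not pass the test. Of 22 tested, 1 was called lower in S273A cells, 2 higher with rosiglitazone and 1 higher with MRL24, with median log2 differences of 0.02 in S273A cells, 0.04 with rosiglitazone and -0.001 with MRL24. Among all genes 5.01% were called lower in S273A cells, 3.7% higher with rosiglitazone and 3.21% higher with MRL24. Lipa, the lysosomal acid lipase that frees cholesterol from lipoprotein esters, had 1976, 1956 and 1849 units in S273A cells, 2686, 2452 and 2689 with rosiglitazone, 2056, 1934 and 1934 with MRL24, and 1951, 2054 and 1872 in untreated wild-type cells. The rosiglitazone arrays were above all others. Lipa rose with rosiglitazone against untreated wild-type by 0.41 on the log2 scale (SE 0.055, limma adjusted p = 0.000171) and was 0.40 higher with rosiglitazone than with MRL24 (adjusted p = 0.000545).

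The other 3 genes called in that list were Scp2, Lrp8 and Mbtps1. Scp2, a sterol carrier protein, rose by 0.23 with rosiglitazone (SE 0.044, limma adjusted p = 0.00349). Lrp8, a receptor of the LDL receptor family, rose by 0.50 with MRL24 (SE 0.113, adjusted p = 0.0213). Mbtps1, the site-1 protease that cleaves SREBPs, fell by 0.23 on the log2 scale in S273A cells (SE 0.049, adjusted p = 0.0103), while its second probe set above the filter was 0.21 higher there.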

How the data were processed

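Total RNA of the 12 samples was labelled with biotin and hybridised to Affymetrix arrays, 1 array each. The authors deposited intensity values on a linear scale, already normalized; no source used here names the method, and a few values lie at 1. Of 22690 probe sets, 64 were controls, 20380 carried 1 symbol, 691 several and 1555 none here. Genes below the 30th percentile of mean intensity over the non-control probe sets were left out. Values were used as log2(value + 16), so differences and folds of dim genes are understated, while means ± SD are of intensities.

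All 12 arrays were fitted as 4 group means with limma 3.58.1 in R 4.3.3 (lmFit, eBayes with a trend), with 8 residual degrees of freedom and Benjamini-Hochberg adjustment over all genes. With 3 arrays a group, their number limits the precision. Tables and figures used python 3.11.15, pandas 2.3.3, numpy 2.4.6 and matplotlib 3.10.9. The fit was tested on simulated data.

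Replicate numbers did not pair the samples: of 18 same-number pairs, 1 had a correlation of deviations over 0.1 (range -0.093 to 0.131). The members, lists and tests were chosen with earlier results of these data known. Members called in at least 1 comparison are given on every array, with Hmgcs1 and Srebf2 added after their values were seen, and up to 4 called genes per further list are named. Promoters came from RefSeq on GRCm38.p6. Alternatives were 23 planned and 2 added after seeing the data (the mean of the probe sets above the filter, and every probe set as its own feature).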

Additional observations from a re-analysis of the deposited data

How the results depend on the processing

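Of 11 calls of members, 2 were kept in all 25 alternatives, those of Msmo1 in S273A cells and with rosiglitazone. Averaging probe sets could not change the values of Msmo1, which has no second probe set here. The other 9 calls were lost in some alternatives, while 10 uncalled differences gained a call in some. One reversed: with the mean of all probe sets, Fdps with rosiglitazone was at -0.055 (adjusted p = 0.893), where a second probe set with a mean of 16.4 units enters the mean. Members called, with 4 in S273A cells, 6 with rosiglitazone, 1 with MRL24 and 0 between the ligands, became 2, 2, 0 and 1 when only the 2 groups compared were fitted. The mean of all probe sets gave 2 in S273A cells and 3 with MRL24 (Msmo1, Srebf2 and Stard4), the mean of the probe sets above the filter gave 3 with MRL24, eBayes without a trend gave 0 with MRL24, and array weights gave 3 between the ligands. With the replicate number as a block, 2, 5, 0 and 0 members and 540, 610, 349 and 175 genes were called, and 3 of 12 arrays correlated best with their own number. Leaving out 1 array gave 2 to 4 members in S273A cells, 1 to 6 with rosiglitazone, 0 to 2 with MRL24 and 0 to 1 between the ligands. Genes called were 654 in S273A cells, 723 with rosiglitazone, 504 with MRL24 and 229 between the ligands, and every set of 4 counts here keeps this sequence. Leaving out 1 array gave 391 to 633, 383 to 764, 64 to 805 and 97 to 480. Counts under S273A moved by over 1.5 times without S273A replicate 2 or 3, and those with rosiglitazone without rosiglitazone replicate 2. MRL24 calls were 805 without untreated replicate 1, 157 without untreated replicate 2, and 164, 117 and 64 without MRL24 replicates 1, 2 and 3. Calls between the ligands were 480 without untreated replicate 2, and 97 to 119 without rosiglitazone replicate 2 or 3 or any 1 MRL24 array. Fitting only the 2 groups gave 237, 362, 51 and 547, and every probe set as its own feature, with more features tested, gave 1221, 1463, 1336 and 356. MRL24 calls were 226 with no filter and 167 without a trend, and calls between the ligands were 132 without a trend and 640 with array weights. Apart from the change in construction named, the cause was not tested. With arrays set to the same median, the split of higher to lower calls was 303 to 520 with rosiglitazone, 205 to 479 with MRL24 and 150 to 65 between the ligands, against 339 to 384, 294 to 210 and 129 to 100; quantile normalization gave 252 to 312 with MRL24. Members called kept their counts within 1 under both scalings.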

Other observations

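Genes of fatty acid synthesis, whose transcription is driven largely by SREBP-1, were counted beside the cholesterol genes. Of 14 tested, 1 was called higher in S273A cells, 2 with rosiglitazone and 2 with MRL24, and none was called lower, with median log2 differences of 0.12 in S273A cells, 0.09 with rosiglitazone and 0.02 with MRL24. Among all genes 2.13% were called higher in S273A cells, 3.7% with rosiglitazone and 3.21% with MRL24. The shares called lower were 5.01%, 4.19% and 2.29% in the same order. Acly, which makes cytosolic acetyl-CoA from citrate and so feeds both fatty acid and sterol synthesis, averaged 3996 ± 304 units in S273A cells, 6090 ± 112 with rosiglitazone, 5213 ± 75.2 with MRL24 and 3991 ± 395 in untreated wild-type cells (SD, n = 3 each). It rose by 0.61 with rosiglitazone (SE 0.064, limma adjusted p = 1.26e-05) and by 0.39 with MRL24 (adjusted p = 0.00701). Acss2, which makes acetyl-CoA from acetate, averaged 444.3 ± 38.6 units in S273A cells, 595 ± 14.8 with rosiglitazone, 460.8 ± 16.7 with MRL24 and 413.8 ± 16.4 in untreated wild-type cells. It rose by 0.51 with rosiglitazone (SE 0.075, adjusted p = 0.000471) and was 0.36 higher with rosiglitazone than with MRL24 (adjusted p = 0.017). Acaca, the acetyl-CoA carboxylase, rose by 0.64 with MRL24, also a call, and Scd1, the stearoyl-CoA desaturase, rose by 0.15 in S273A cells (adjusted p = 0.0271).

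Of 9 tested LXR targets, Abca1 among them, 1 was called higher and 1 lower in S273A cells, 1 higher and 1 lower with rosiglitazone, and none with MRL24, where limma gave 1 higher and 1 lower at an unadjusted p under 0.05, beside 13.3% and 11.3% of all genes. Calls over all genes were 2.13% higher and 5.01% lower in S273A cells, and 3.7% and 4.19% with rosiglitazone. With MRL24 they were 3.21% and 2.29%. Lpcat3, a phospholipid acyltransferase, averaged 1701 ± 160 units in S273A cells, 2177 ± 78.8 with rosiglitazone, 1635 ± 115 with MRL24 and 1519 ± 84.2 in untreated wild-type cells. It rose by 0.515 with rosiglitazone against untreated wild-type (SE 0.07, limma adjusted p = 0.000215) and was 0.41 higher with rosiglitazone than with MRL24 (adjusted p = 0.00337), while Abca1 fell with rosiglitazone on its brightest probe set.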
